A study of Mus musculus with 2 samples.

Results

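The 37 genes described here encode proteins of homologous recombination and the DNA damage response. They were taken by symbol from the 32285 genes in the deposited count matrices, and all 37 symbols were found. The samples were E14 mouse embryonic stem cells (129/Ola background), grown on gelatin in medium with serum and leukaemia inhibitory factor. In the group named control the cells received a control small interfering RNA (siRNA), and in the group named sonKD they received siRNA against Son, in both cases by lipofection. Cells were collected 24 h after transfection, frozen, thawed, sorted for viability and profiled with 10x Genomics 3′ single-cell RNA sequencing, 1 library per group. The question was which transcripts differ after depletion of Son. Depletion by siRNA is transient, and the uptake of siRNA by single cells was not measured.

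A double-strand break is sensed by the Mre11, Rad50 and Nbn complex, which recruits the kinase Atm and starts resection of the ends. Brca1, Palb2 and Brca2 then prepare the exposed single strand to invade the sister chromatid, which serves as template, while Ku binding directs ends to direct joining instead. Mouse embryonic stem cells spend much of their cycle in S phase, when replication forks need Atr, Chek1 and the Fanconi anaemia proteins and when a sister chromatid is at hand. Son is a large protein of nuclear speckles known for its part in splicing introns with weak splice sites. Counts from transcript 3′ ends give the amount of a transcript, not how it was spliced.

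Cells were barcodes with at least 2500 UMIs (unique molecular identifiers, each marking 1 captured transcript) and 1000 genes, of whose UMIs no more than 10% were mitochondrial. This left 4978 control cells with a median of 7737.5 UMIs (40902904 in all) and 2731 sonKD cells with a median of 11612 (32032551 in all). Son itself was at 169 CPM (UMIs per 1000000) in control and 106 in sonKD, a log2 ratio of -0.67 (95% interval -0.73 to -0.61). The libraries differed in other ways too: of the barcodes with enough UMIs and genes, 11.2% in control and 27.9% in sonKD were over 10% mitochondrial, ribosomal protein genes held 20.8% and 24.1% of the UMIs in cells, and 2 cell barcodes occurred in both. All 10 pluripotency markers were present (summed 8946 CPM in control, 9690 in sonKD), while 8 fibroblast markers summed to 4.84 and 5.12 CPM (no UMI for Col3a1, Postn or Lum), 7 primitive endoderm markers to 6.55 and 5.34 CPM, and 8 mesoderm and neural markers to 15.7 and 13.6 CPM (no UMI for Neurog2). The higher pluripotency sum in sonKD was not shared by most of its genes: 8 of the 10 had log2 ratios below 0 and 2 above. Their median was -0.06, and Pou5f1 was the lowest with -0.27. Dppa5a alone (log2 ratio 0.27) made up 5027 CPM of the control sum and 6075 of the sonKD sum. The part of these library differences in the results below was not tested.

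Levels are CPM over the UMIs of all cells in a library, with exact Poisson 95% intervals. They are not divided by transcript length, since 3′ counting takes 1 end per molecule, and levels are compared between libraries, not between genes. The difference is the log2 ratio of sonKD to control, negative where sonKD was lower, with an exact conditional binomial 95% interval. All intervals cover counting error only. With 1 library per group there is no test and no replicate check, and an effect of the siRNA and a difference between libraries cannot be told apart. A gene was counted as lower or higher where its mean over both libraries reached 10 CPM and its log2 ratio was 0.32 or more in size.

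The repair and checkpoint genes as a group were slightly lower in sonKD, as were most other transcripts. Their summed level was 2880 CPM (2864 to 2897) in control and 2490 CPM (2473 to 2507) in sonKD, a log2 ratio of -0.21 (-0.22 to -0.20). Parp1 alone held 23.8% of these UMIs in control, and without it the sums were 2195 and 2008 CPM, a log2 ratio of -0.13 (-0.14 to -0.11). Of the 37 genes, 34 reached a mean of 10 CPM, and Xrcc3, Fancg and Fancb did not. Among these 34, 4 were lower by this limit (11.8%) and 0 were higher, where the background over 8063 genes was 10.2% lower and 3.5% higher. The 4 were Parp1, Xrcc1, Fancd2 and Rad54l. Their share lay close to the background, as did the median log2 ratio of the 34 genes, -0.14, against -0.12 for all genes. In single genes, 31 of 34 ratios were below 0, and over all genes 6039 of 8063 were. The 34 ratios ran from -0.51 to 0.06, where the 5th and 95th percentiles of all genes were -0.40 and 0.25. The split over all genes depended on the scaling: with TMM factors 4.59% of all genes were lower and 5.57% higher, and 3 of the 34 genes were lower, since Rad54l then had a log2 ratio of -0.27. The summed log2 ratio was then -0.12, and 12 of 34 single ratios lay above 0, among them those of Brca1, Bard1, Rad50, Nbn, Rbbp8, Fancm, Atrip, Clspn and Msh6. The median of all genes was then -0.03, and their ratios above 0 were not counted. In cells of 5000 to 15000 UMIs, the same bounds in both libraries, 9 of 34 were lower against a background of 17.1%, namely Xrcc2, Fanca, Fancc, Atm and Mdc1 besides the 4.

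**Figure D1:**
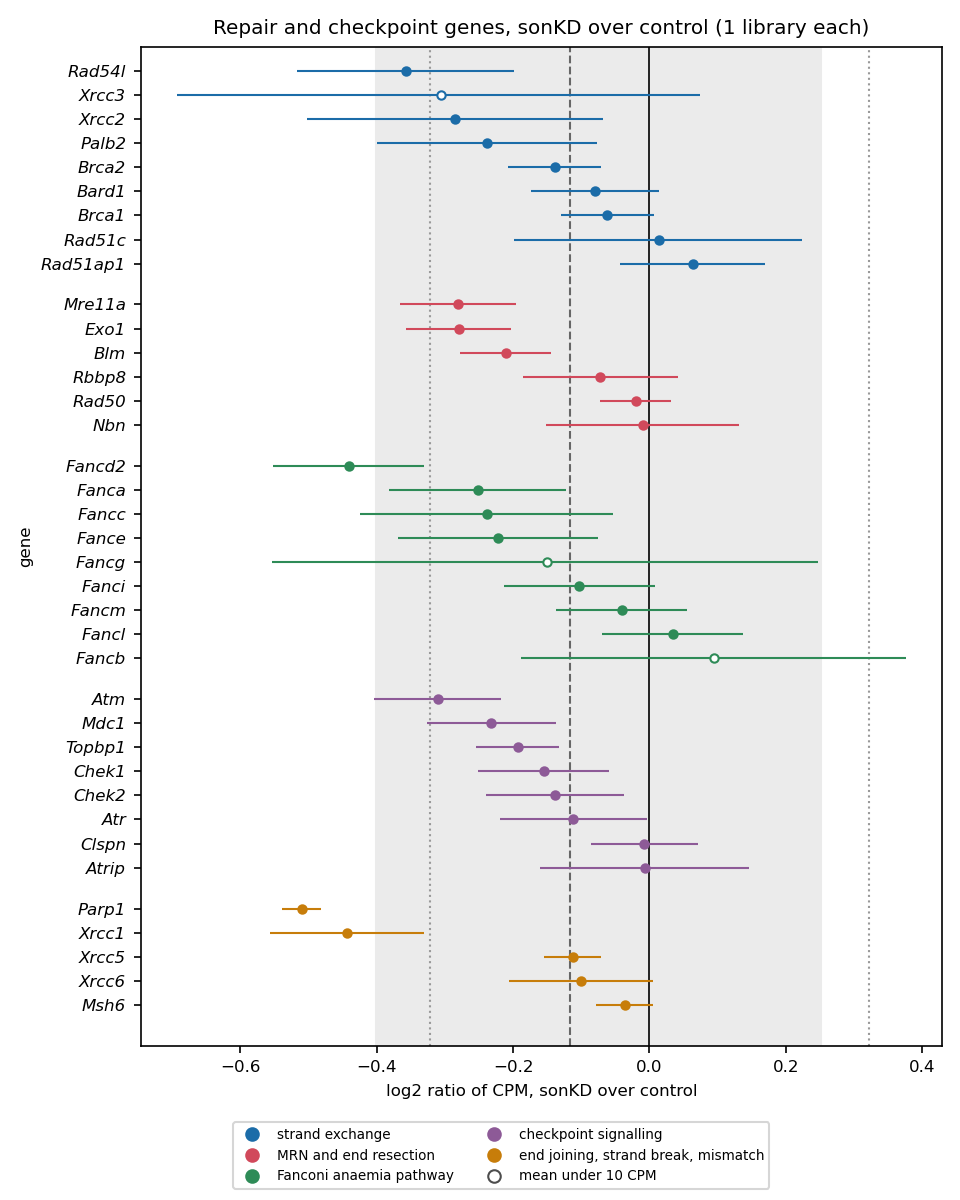
Log2 ratio of sonKD to control CPM (x axis) for the 37 genes (y axis), grouped by role; points are 1 library against 1 library, bars are 95% counting intervals, open points have a mean under 10 CPM, the dashed line is the median of all genes, the grey band runs from their 5th to their 95th percentile and dotted lines mark the limit of 0.32 in either direction. Parp1, Xrcc1, Fancd2 and Rad54l lie left of the dotted line at -0.32, and most other genes lie between it and 0.

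The first group comprised 9 genes that prepare resected DNA for strand exchange or act in it, of which 8 reached the mean of 10 CPM, 1 was lower and 0 were higher (median log2 ratio -0.11). Rad54l, a motor protein that helps the strand invade the duplex, was at 21.1 CPM (19.7 to 22.5) in control and 16.5 CPM (15.1 to 17.9) in sonKD. This is 78.1% of the control level (log2 ratio -0.36, -0.52 to -0.20), and the intervals of the 2 levels did not overlap. At the other end of the group stood Rad51ap1, which stabilises the joint molecule, with 39.1 CPM (37.2 to 41.0) in control and 40.8 CPM (38.7 to 43.1) in sonKD, a log2 ratio of 0.06 (-0.04 to 0.17). The Brca1 and Bard1 heterodimer, a ubiquitin ligase that promotes resection and Palb2 recruitment, differed little. Brca1 had 98.6 CPM in control and 94.4 CPM in sonKD (log2 ratio -0.06, -0.13 to 0.01), and Bard1 had 52.9 and 50.0 CPM (log2 ratio -0.08, -0.17 to 0.01). Both intervals included 0. Palb2, the bridge from Brca1 to Brca2, was lower by more, with 19.5 CPM in control and 16.5 CPM in sonKD (log2 ratio -0.24, -0.40 to -0.08). Brca2, a mediator of strand exchange, had 104 and 94.6 CPM (log2 ratio -0.14, -0.21 to -0.07), although its gene model overlaps Gm42531 on the same strand, whose reads may not be separable. Xrcc2, Rad51c and Xrcc3, which assist this step, had few UMIs. Xrcc2 had 11.03 CPM in control and 9.05 CPM in sonKD (log2 ratio -0.28, -0.50 to -0.07). For Rad51c the levels were 10.3 and 10.4 CPM (log2 ratio 0.01, -0.20 to 0.22), and the last 500 bases of its transcript share stretches of at least 100 bases at 90% identity or more with 431 other genes. Xrcc3, under the 10 CPM mean, had 3.67 and 2.97 CPM from 150 and 95 UMIs, with a log2 ratio of -0.31 (-0.69 to 0.07).

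The second group comprised 6 genes of break sensing and end resection, all of which reached the mean, with 0 lower and 0 higher (median log2 ratio -0.14). Within the complex that senses breaks the 3 subunits did not stand together. Mre11a, the nuclease subunit, was at 69.4 CPM (66.9 to 72.0) in control and 57.2 CPM (54.6 to 59.8) in sonKD, a log2 ratio of -0.28 (-0.37 to -0.20). Rad50, the ATPase that tethers the ends, had 168 CPM in control and 166 CPM in sonKD (log2 ratio -0.02, -0.07 to 0.03). Nbn, the subunit that recruits Atm, had 22.9 CPM (21.5 to 24.4) and 22.8 CPM (21.1 to 24.5), a log2 ratio of -0.01 (-0.15 to 0.13). The interval of Mre11a did not overlap that of either partner, so at the transcript level 1 of the 3 subunits was lower relative to the others. The other 3 genes act in resection. Exo1, the long-range exonuclease, had 85.0 CPM in control and 70.0 CPM in sonKD (log2 ratio -0.28, -0.36 to -0.20), and the helicase Blm had 110 and 95.2 CPM (log2 ratio -0.21, -0.28 to -0.14). Rbbp8, which encodes CtIP and starts resection together with Mre11, had 36.1 and 34.4 CPM (log2 ratio -0.07, -0.19 to 0.04).

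The Fanconi anaemia pathway repairs interstrand crosslinks: a core complex adds ubiquitin to the pair of Fancd2 and Fanci, which then recruits nucleases and recombination proteins. Of its 9 genes 7 reached the mean, 1 was lower and 0 were higher, and the median log2 ratio of -0.22 was the lowest of the 5 groups. By summed level it was not the lowest. Its sum had a log2 ratio of -0.15 (-0.19 to -0.11), against -0.30 for the group of end joining, strand break and mismatch genes. Fancd2 had 44.9 CPM (42.9 to 47.0) in control and 33.1 CPM (31.1 to 35.1) in sonKD, 73.7% of the control level (log2 ratio -0.44, -0.55 to -0.33). Its partner Fanci had 38.3 CPM in control and 35.7 CPM in sonKD (log2 ratio -0.10, -0.21 to 0.01). The ratios of these 2 partners differed from each other by more than their counting error. In the core complex Fanca had 29.9 and 25.1 CPM (log2 ratio -0.25, -0.38 to -0.12), Fance 23.2 and 19.9 CPM (log2 ratio -0.22, -0.37 to -0.08) and Fancc 14.8 and 12.5 CPM (log2 ratio -0.24, -0.42 to -0.05). These 3 subunits lay within a narrow span of ratios, with the reservation that Fancc overlaps Gm16132 on its own strand. Fancl, the ubiquitin ligase of the complex, was at 41.8 CPM (39.8 to 43.8) in control and 42.8 CPM (40.5 to 45.1) in sonKD, with a log2 ratio of 0.03 (-0.07 to 0.14). Fancm, the translocase that anchors the complex on DNA, had 50.4 and 49.0 CPM (log2 ratio -0.04, -0.14 to 0.05). Too faint for the 10 CPM mean were Fancg, with 3.15 CPM from 129 UMIs and 2.84 CPM from 91, and Fancb, with 5.67 CPM from 232 UMIs and 6.06 CPM from 194. Their intervals ran from -0.55 to 0.25 and from -0.19 to 0.38, so at this depth a ratio of -0.32 lay within the interval of Fancg and one of 0.32 within that of Fancb.

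Checkpoint signalling was represented by 8 genes, all of which reached the mean, with 0 lower, 0 higher and a median log2 ratio of -0.15. Atm, the kinase that answers double-strand breaks, was at 58.8 CPM (56.5 to 61.2) in control and 47.5 CPM (45.1 to 49.9) in sonKD. Its log2 ratio of -0.31 (-0.40 to -0.22) was just short of the limit of -0.32, and Rad54l at -0.36 was the member just past it. Mdc1, the adaptor that spreads the Atm signal along chromatin, had 55.5 CPM in control and 47.3 CPM in sonKD (log2 ratio -0.23, -0.33 to -0.14). Atr and its partners answer stalled forks. Atr, the kinase, had 40.9 and 37.8 CPM (log2 ratio -0.11, -0.219 to -0.00398), and its partner Atrip 19.4 CPM (18.1 to 20.8) and 19.3 CPM (17.8 to 20.9), with a log2 ratio of -0.01 (-0.16 to 0.15). Atrip overlaps the exonuclease gene Trex1 on the same strand. Topbp1, the activator of Atr, had 130 CPM in control and 114 CPM in sonKD (log2 ratio -0.19, -0.25 to -0.13), whereas Clspn, the adaptor through which Atr reaches Chek1, was at 73.9 and 73.6 CPM (log2 ratio -0.01, -0.09 to 0.07). The effector kinases had similar ratios. Chek1, downstream of Atr, had 52.1 and 46.8 CPM (log2 ratio -0.16, -0.25 to -0.06), and Chek2, downstream of Atm, had 46.9 and 42.6 CPM (log2 ratio -0.14, -0.24 to -0.04). The 3′ end of Chek2 shares a stretch of up to 173 bases with other genes, 176 in all by the same criteria as for Rad51c. Targets of p53 are read out downstream of these kinases. Cdkn1a, the p21 inhibitor of cyclin-dependent kinases, had 50.9 CPM in control and 48.7 CPM in sonKD (log2 ratio -0.06, -0.16 to 0.03), and Mdm2, the p53 ubiquitin ligase, had 141 and 128 CPM (log2 ratio -0.14, -0.20 to -0.08). Of 26 p53 target genes at the mean, 1 was lower (3.85%) and 1 was higher (3.85%), against 10.2% and 3.5% of all genes, with log2 ratios from -0.35 (Sesn2) to 0.47 (Perp).

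The last group held 5 genes of end joining, single-strand break repair and mismatch recognition, with 2 lower and 0 higher (median log2 ratio -0.11). Its summed level was 1299 CPM in control and 1054 CPM in sonKD, a log2 ratio of -0.30 (-0.32 to -0.28), which Parp1 dominated. Parp1, which detects nicks and marks them with poly(ADP-ribose), had 686 CPM (678 to 694) in control and 482 CPM (474 to 489) in sonKD, or 70.2% of control. Its log2 ratio of -0.51 (-0.54 to -0.48) was the lowest of the 37 and stood at percentile 2.18 of all genes. Counted per cell, however, Parp1 was equal, with 5.63 UMIs per control cell and 5.65 per sonKD cell, while the median sonKD cell held more UMIs in all. Xrcc1, the scaffold that Parp1 activity recruits to nicks, had 42.6 CPM (40.6 to 44.7) in control and 31.3 CPM (29.4 to 33.3) in sonKD, 73.6% of control (log2 ratio -0.44, -0.56 to -0.33). So the sensor and the scaffold of single-strand break repair were both among the 4 lower members. The Ku subunits, which cap ends for direct joining, were nearly level: Xrcc5 (Ku80) had 266 and 246 CPM (log2 ratio -0.11, -0.15 to -0.07) and Xrcc6 (Ku70) 42.4 and 39.5 CPM (log2 ratio -0.10, -0.21 to 0.01). Msh6, a subunit of the mismatch sensor, was at 262 CPM (257 to 267) in control and 256 CPM (250 to 261) in sonKD, a log2 ratio of -0.04 (-0.08 to 0.01).

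**Figure D2:**
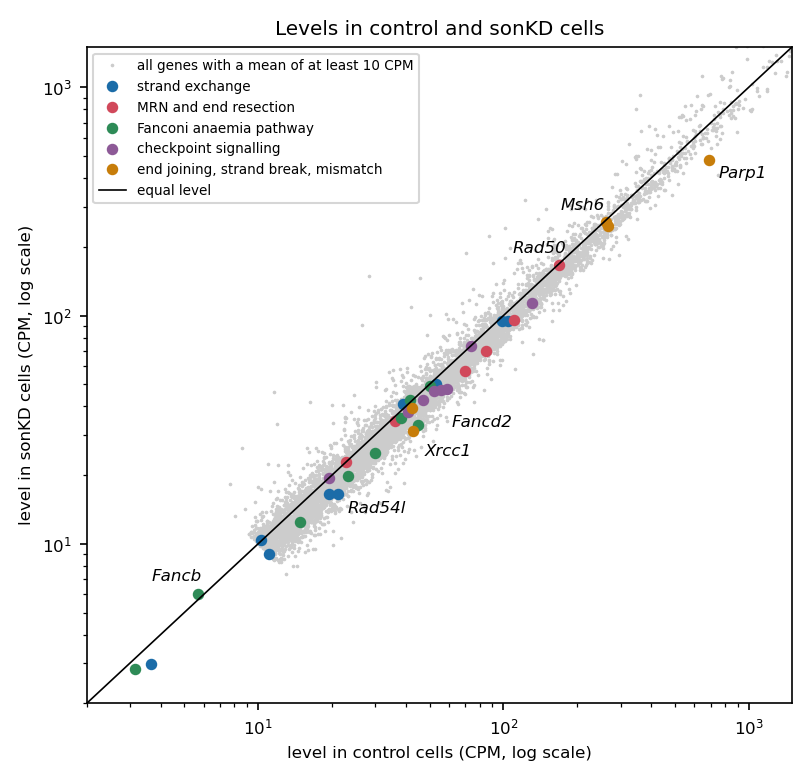
Level in sonKD cells (y axis) against level in control cells (x axis), both in CPM on log scales, for the 37 genes by role and for the genes within the axis limits whose mean reached 10 CPM; the line marks equal levels. Parp1 (686 and 482 CPM) lies clearly under the line, while Rad50 and Msh6 lie close to it.

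The 4 lower genes lie on different chromosomes, apart from each other: Parp1 at chr1:180568924-180601254, Rad54l at chr4:116094264-116123690, Fancd2 at chr6:113531682-113597017 and Xrcc1 at chr7:24546289-24573440 (GENCODE M21 gene models on GRCm38, Rad54l on the minus strand). Rad54l overlaps Lrrc41 and Fancd2 overlaps Fancd2os, each on the opposite strand, and for 14 of the 37 genes such an overlap exists, which counts made without regard to strand could mix. The 37 genes are long in exons, with a median of 18.5 exons at the mean of 10 CPM against 9 for all such genes, and a median GC content of 46.4% against 49.5% in their transcript models. Across the 34 genes the Spearman rho of the log2 ratio was -0.35 with transcript GC content, -0.26 with exon number and -0.09 with transcript length, and across 8061 genes these were -0.03, -0.29 and -0.28. These are descriptions over genes that share the same 2 libraries.

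The other genes of these pathways gave a similar picture. Over 8 lists of repair and checkpoint genes outside the 37, 119 genes reached the mean, of which 10 were lower (8.40%) and 1 was higher, with a median log2 ratio of -0.09. Among 35 other homologous recombination genes 2 were lower and 1 higher, from Recql5, a helicase (18.4 CPM in control, 14.3 CPM in sonKD, log2 ratio -0.36), to Rpa3, the small subunit of the single-strand binding protein (22.6 and 34.1 CPM, log2 ratio 0.60). Of 9 other end joining genes 2 were lower and 0 higher. The highest of them was the nuclease gene Dclre1c (Artemis) at -0.03. Among 10 other crosslink repair genes 1 was lower, Ercc1 (log2 ratio -0.38), a subunit of an endonuclease, and the highest was Ube2t, the ubiquitin-conjugating enzyme of Fancl (59.4 and 70.3 CPM, log2 ratio 0.24). Of 17 other checkpoint genes 3 were lower, with Paxip1 the lowest at -0.38 and the histone variant gene H2afx the highest at 0.11. In base excision repair 1 of 11 was lower, the glycosylase gene Nthl1 at -0.40, and Parp2, the closest relative of Parp1, was the highest with 93.5 CPM in control and 111 CPM in sonKD, a log2 ratio of 0.25 (0.19 to 0.32). Parp1 and Parp2 thus lay on opposite sides of 0. In nucleotide excision repair 1 of 19 was lower, and Gtf2h5 was the highest at 0.25. None of 6 mismatch repair genes (Pms1 lowest at -0.25) and none of 12 translesion synthesis genes (Rev3l at -0.26 to Polk at 0.05) passed the limit in either direction.

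Several of these genes are known to be transcribed most around S phase, so cells were ranked by a score, the log2 ratio of G2/M list UMIs to S list UMIs, built from 36 S and 52 G2/M genes that include none of the 37. Each cell was first thinned to 4000 UMIs, which left 4710 control and 2622 sonKD cells (268 and 109 shallower cells were left out). The ranges were cut at the tertiles of control and held 33.4%, 33.4% and 33.2% of the cells in control, against 34.2%, 33.6% and 32.2% in sonKD. They are ranges of a continuous score, with 23.3% of cells in control, and 20.5% in sonKD, within 0.1 of a cut between ranges. Levels within ranges use all UMIs of the cells.

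Levels of several members were higher in the range with more S phase transcripts, in both libraries. Brca1 was at 111, 103 and 84.9 CPM from the lower to the upper range in control (upper over lower log2 ratio -0.38, -0.49 to -0.27) and at 103, 96.4 and 83.6 CPM in sonKD (log2 ratio -0.30, -0.43 to -0.17). Exo1 went from 96.5 to 78.5 CPM in control (log2 ratio -0.30) and from 79.0 to 61.5 CPM in sonKD (log2 ratio -0.36). Atm went from 65.4 to 51.5 CPM in control (log2 ratio -0.35) and from 51.7 to 42.6 CPM in sonKD (log2 ratio -0.28). These 3 genes had intervals below 0 in both libraries. So had Clspn (log2 ratio -0.20 in control and -0.29 in sonKD) and, with smaller ratios, Parp1 (-0.15 and -0.19) and Msh6 (-0.11 and -0.12). How many of all genes had such intervals, in either direction, was not counted. In the opposite direction stood Fancc alone, with 11.9 and 16.8 CPM in the lower and upper control ranges (log2 ratio 0.49, 0.19 to 0.80) and 11.4 and 14.9 CPM in sonKD (log2 ratio 0.38, 0.03 to 0.74). In control 3 of 34 genes were lower in the upper range by the same limit (8.82%; Brca1, Rad54l and Atm), where the background was 2.7%, and 1 was higher, where it was 6.23%. In sonKD 2 were lower (5.88%; Rad51c and Exo1) against a background of 2.53% and 1 was higher against 6.25%. The median upper over lower log2 ratio of the 34 genes was -0.07 in control and -0.08 in sonKD, against 0.00 and 0.01 for all genes.

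**Figure D3:**
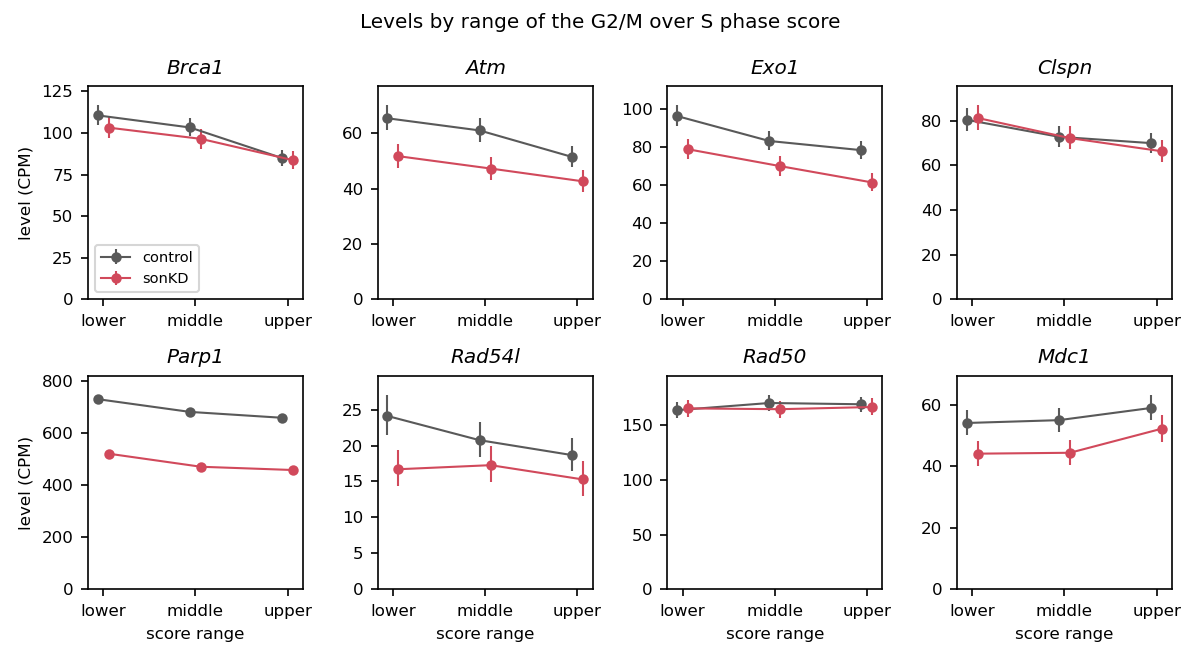
Level in CPM (y axis, from 0) of 8 genes in the lower, middle and upper range of the G2/M over S phase score (x axis), for control and sonKD; bars are 95% Poisson intervals. Brca1, Atm and Exo1 have their lowest level in the upper range in both libraries, Rad50 is level across ranges, and Parp1 is lower in sonKD in each range.

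The difference in Parp1 was nearly the same in all 3 ranges, with sonKD over control log2 ratios of -0.49, -0.53 and -0.52 from the lower to the upper range. For Fancd2 they were -0.37, -0.51 and -0.47, and for Xrcc1 -0.47, -0.59 and -0.26. Rad54l had -0.53, -0.26 and -0.29, so that it passed the limit only in the range with most S phase transcripts, where it had 24.1 CPM in control and 16.7 CPM in sonKD; whether the ranges differ was not tested. Within the lower range 10 of 34 genes were lower and 0 higher, where the background was 13.6% and 4.42%, and these included Palb2, Xrcc2, Mre11a, Fanca, Fance and Atm besides the 4. In the middle range 5 were lower and 0 higher against a background of 15.2% and 4.28%, and in the upper range 4 and 0 against 12.3% and 4.12%. The 2 in common to all 3 ranges were Parp1 and Fancd2.

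The same ratios were taken in barcodes outside the cells. In barcodes over 10% mitochondrial (625 in control, 1056 in sonKD) the 37 genes summed to 2906 and 2509 CPM, a log2 ratio of -0.21 (-0.26 to -0.16), the value found in cells. Parp1 had 397 and 275 CPM there (log2 ratio -0.53, -0.67 to -0.39) and Fancd2 64.3 and 47.8 CPM (log2 ratio -0.43, -0.77 to -0.09), as large as in cells. Xrcc1 was not lower there, with 34.4 CPM from 68 UMIs in control and 34.9 CPM from 127 UMIs in sonKD (log2 ratio 0.02, -0.42 to 0.46). In droplets of 100 to 500 UMIs, which hold free RNA, the 37 genes summed to 1115 and 839 CPM (log2 ratio -0.41, -0.44 to -0.38). Against 5th and 95th percentiles of -0.82 and 0.26 for all genes, the 34 ratios ran from -0.89 to -0.01. Their median was -0.29, close to the median of all genes, -0.24. Parp1 was at 295 CPM in control droplets and 161 CPM in sonKD droplets (log2 ratio -0.87), and Xrcc1 at 19.2 and 10.4 CPM (log2 ratio -0.89). The free RNA held less of these transcripts than the cells did: the median log2 ratio of free RNA to cells was -1.48 in control and -1.56 in sonKD for the 34 genes, against -0.92 and -1.03 for all genes. Chek1 was nearest to its level in cells (-0.38 in control) and Atr farthest below (-2.78).

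**Figure D4:**
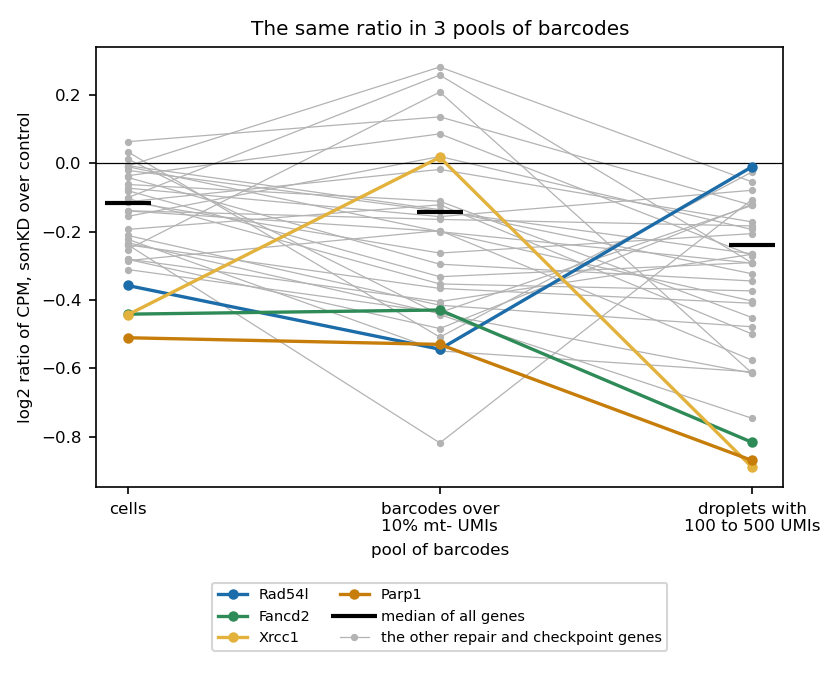
Log2 ratio of sonKD to control CPM (y axis) for the 34 genes whose mean reached 10 CPM in 3 pools of barcodes (x axis): cells, barcodes over 10% mitochondrial UMIs and droplets of 100 to 500 UMIs; short black bars are the medians of all genes. Parp1 and Fancd2 are below -0.4 in all 3 pools, whereas Xrcc1 is at 0.02 in the second pool and Rad54l at -0.01 in the third.

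Promoter sequences from RefSeq (GRCm38.p6, from 250 bases before to 50 after the start) were matched for 31 of the 37 genes, and their letters were searched on both strands. The E2F letters TTTCCCGC, TTTCGCGC, TTTGGCGC or TTTGCCGC, which E2F proteins of the S phase program are known to bind, were in 10 of 31 promoters (32.3%), against 2.33% of all 27025 promoters and 4.99% of the 6471 promoters of genes whose mean reached 10 CPM. The 30-base windows below show the match in capitals, 5′ to 3′ on the gene's strand, for the 9 genes whose RefSeq start lies within 174 bases of the GENCODE start; they are shown because the same 8 letters recur in genes of different roles.
Bard1: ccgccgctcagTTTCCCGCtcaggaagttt
Mdc1: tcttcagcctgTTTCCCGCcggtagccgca
Msh6: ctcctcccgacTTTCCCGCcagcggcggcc
Fancg: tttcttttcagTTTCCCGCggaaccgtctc
Brca2: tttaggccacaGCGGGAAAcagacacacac
Chek2: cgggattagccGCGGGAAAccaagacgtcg
Clspn: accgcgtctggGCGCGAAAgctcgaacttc
Topbp1: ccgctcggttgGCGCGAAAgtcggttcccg
Rad51c: gtttccagcgcTTTCGCGCctcttgctcta
The windows lie at chr1:71103163-71103192 (Bard1, minus strand), chr17:35841471-35841500 (Mdc1), chr17:87975054-87975083 (Msh6), chr4:43010335-43010364 (Fancg, minus), chr5:150522442-150522471 (Brca2), chr5:110839820-110839849 (Chek2), chr4:126556990-126557019 (Clspn), chr9:103305187-103305216 (Topbp1) and chr11:87404477-87404506 (Rad51c, minus). Bard1, Mdc1, Msh6 and Fancg carry TTTCCCGC and Brca2 and Chek2 its reverse complement, while Clspn, Topbp1 and Rad51c carry TTTCGCGC or its reverse complement. Of the 10 genes with E2F letters, 9 reached a mean of 10 CPM, all but Fancg. They include Xrcc6, not shown because its RefSeq start lies 850 bases from the GENCODE start. These 9 had sonKD over control log2 ratios from -0.23 to 0.01 (median -0.10), and 0 of them were lower by the limit. The 19 without had ratios from -0.51 to 0.06 (median -0.21), of which 3 were lower. The difference between these sets was not tested.

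None of the 3 lower genes with a promoter in RefSeq had E2F letters. The promoter of Parp1, whose difference was the largest, is shown with the GC box letters GGGCGG (here as CCGCCC) in capitals, at chr1:180568641-180568890 on the plus strand, and that of Rad54l with GC box letters and a CCAAT box in capitals, at chr4:116123690-116123939 on the minus strand, each 250 bases long.
Parp1: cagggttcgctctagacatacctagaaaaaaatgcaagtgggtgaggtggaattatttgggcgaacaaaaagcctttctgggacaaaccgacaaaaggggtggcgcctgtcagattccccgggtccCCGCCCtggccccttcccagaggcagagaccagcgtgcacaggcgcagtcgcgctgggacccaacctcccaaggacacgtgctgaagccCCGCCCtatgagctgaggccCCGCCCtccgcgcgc
Rad54l: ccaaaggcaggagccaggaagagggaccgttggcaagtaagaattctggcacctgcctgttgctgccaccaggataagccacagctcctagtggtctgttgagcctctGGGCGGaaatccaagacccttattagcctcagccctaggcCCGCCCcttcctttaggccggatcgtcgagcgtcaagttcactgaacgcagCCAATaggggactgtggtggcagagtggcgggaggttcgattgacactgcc
The Parp1 promoter held 3 GC boxes, had a GC content of 61.6% and no CCAAT box, and that of Rad54l held 2 GC boxes and 1 CCAAT box with a GC content of 58.4%. GC box letters were in 20 of 31 member promoters (64.5%), against 69.6% of those 6471 promoters, and CCAAT letters in 21 of 31 (67.7%), against 39.5%. The letters TTTGAA of the cell cycle homology region were in 1 (3.23%, Bard1), against 11.5%, the NRF1 motif in 3 (9.68%), against 12.8%, and CCGGAAGT of ETS factors in 1 (3.23%), against 10.8%.

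Several of the 37 genes share a divergent promoter region with a neighbour whose start lies within 1000 bases on the other strand, 8 of the 34 at the mean (23.5%) against 20.1% of all genes. Atm and Npat, a histone gene coactivator, start 307 bases apart, and Npat had 54.8 CPM in control and 41.8 CPM in sonKD (log2 ratio -0.39, -0.49 to -0.29), beside -0.31 for Atm. Fancd2 and Emc3 start 30 bases apart, but Emc3 was at 32.3 and 30.0 CPM (log2 ratio -0.11, -0.23 to 0.01), beside -0.44 for Fancd2. For Chek2 the neighbour Hscb was at 30.7 and 38.7 CPM (log2 ratio 0.34, 0.22 to 0.45), opposite in direction to Chek2 at -0.14. The intervals overlapped in 3 other pairs with both genes at the mean, Brca1 and Nbr1 (-0.06 and -0.18), Palb2 and Dctn5 (-0.24 and 0.00) and Rad51c and Tex14 (0.01 and -0.05).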

How the data were processed

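For each of the 2 libraries the authors deposited a matrix of UMI counts, neither normalized nor filtered, made with Cell Ranger 7.1.0, per the file headers. The genome build is mm10 per the submitters' processing notes. The gene annotation, and whether intronic reads were counted, which would add unspliced transcripts, are not given in the sources used here. The libraries held 71046373 (control) and 60352438 (sonKD) UMIs over all barcodes. Groups came from the sample titles, and nothing in the labels describes more than 1 culture per group.

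Counts were summed over cells (at least 2500 UMIs, 1000 genes, at most 10% mitochondrial UMIs) and divided by the library's sum over cells. No doublet caller was run; an alternative left out the barcodes of highest UMI count (0.8% per 1000 barcodes). For ratios a count under 3 became 3. Scripts ran in Python 3.11.15 (numpy 2.4.6, scipy 1.17.1, pandas 2.3.3) and were tested on simulated data. TMM factors came from edgeR 4.0.16 and size factors from DESeq2 1.42.0 in R 4.3.3, used for scaling only. Gene models came from GENCODE M21 (GRCm38), with 32158 of 32285 identifiers matched, and promoters from RefSeq. The 37 genes and all gene lists were chosen with earlier results of these data known. Named were all 37 genes, the highest and lowest of each other pathway list, Son, Cdkn1a and Mdm2. Some genes of the other lists, although counted, are not reported here by name. The symbols Bre, Shfm1, Firrm, Claspin, Mlf1ip, Fam64a and Hn1 of the lists were not found and not replaced. The counting intervals are at 95% confidence, and p-values were not computed.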

Additional observations from a re-analysis of the deposited data

How the results depend on the processing

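Of 57 recomputed summaries of the 37 genes 46 stayed close to the reported value and 11 moved, and of 370 recomputed single-gene ratios 39 moved. Close meant within a factor of 1.5 for a count, and within the counting interval of the reported value for a ratio. For a median, that interval ran between the medians of the genes' interval ends. A small ratio could therefore change sign and still count as close. The summed log2 ratio was -0.12 with TMM factors, -0.13 with DESeq2 size factors, -0.14 against a library sum without mitochondrial and ribosomal protein genes, -0.23 with cells thinned to 4000 UMIs, and, in alternatives chosen after seeing the data, -0.26 in cells with 5000 to 15000 UMIs and -0.13 without Parp1. The median log2 ratio was -0.0486 with TMM factors and -0.0537 with DESeq2 size factors. The number of lower genes was 9 in cells with 5000 to 15000 UMIs (background 17.1%), 1 of 14 at a mean of at least 50 CPM and 0 at a fold of 1.5. It was 3 (Fancd2, Xrcc1 and Parp1, without Rad54l) under the 3 other scalings (background 4.59% with TMM factors and 4.75% with DESeq2 size factors). Of the same 34 genes, 7 were lower with cells thinned to 4000 UMIs, 6 with at least 5000 UMIs and 5 without the barcodes of highest UMI count. With at most 5% mitochondrial UMIs 5 were lower, with Xrcc2 and Atm but without Rad54l. Backgrounds of the other settings are not reported here. The number of higher genes was 0 throughout. Beyond what each setting itself changes (scaling, cells kept, genes kept), the cause was not tested. With DESeq2 size factors 12 of 34 single ratios were above 0, as with TMM factors, and with the library sum without mitochondrial and ribosomal protein genes 11 were. Ratios above 0 were not counted over all genes in these settings. Son stayed between -0.72 and -0.58.

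No paired analysis was possible because each group held 1 library, and leaving out a replicate was not run for the same reason. Depth limits Xrcc3, Fancg and Fancb most, whose levels rest on 91 to 232 UMIs per library. The libraries differ in UMIs per cell and in the share of mitochondrial barcodes, which cannot be told apart from the siRNA.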

Other observations

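In cells thinned to 4000 UMIs, 4 of the repair genes averaged at least 0.5 UMIs per cell in both libraries, which allowed the spread between cells to be read as the Fano factor (variance over mean, 1 for pure counting noise). Parp1 had 1.22 in control and 1.36 in sonKD, and Msh6 had 1.18 and 1.22. Xrcc5 had 1.03 and 1.08, and Rad50 had 1.05 and 1.02. The median over the 1202 genes at that level was 1.087 in control and 1.097 in sonKD, so Parp1 and Msh6 lay above it and Xrcc5 and Rad50 below it in both libraries.

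In barcodes over 10% mitochondrial the summed level of the 37 genes was close to that in cells, 2906 against 2880 CPM in control and 2509 against 2490 CPM in sonKD. The median log2 ratio of the 34 genes to their level in cells was 0.33 in control and 0.23 in sonKD, against 0.15 and 0.11 for all genes. The 34 ratios ran from -0.79 to 0.91 in control and from -0.81 to 1.00 in sonKD. The 5th and 95th percentiles of all genes were -0.90 and 0.93 in control, and -0.80 and 0.85 in sonKD. Parp1 was below its level in cells, at 397 CPM in these barcodes and 686 CPM in cells of the control library. Zfyve21, which starts 329 bases from Xrcc3 on the other strand, had 18.3 CPM in control and 25.1 CPM in sonKD (log2 ratio 0.46, 0.31 to 0.60), beside -0.31 for Xrcc3.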
